A study of Musa acuminata AAA Group with 4 samples.

Results

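The 9 genes described here are banana members of the NRT1/PTR FAMILY (NPF) that lie outside its NPF6 subfamily, out of 31873 genes listed in any library. They were taken as a fixed list of gene identifiers. Each carried a best-match description as NPF2.11-like, NPF2.13-like, NPF3.1, NPF4.4-like, NPF4.6-like, NPF5.2-like, NPF7.3-like or, for 2 genes, NPF8.1-like. The members were chosen by measured values, since a description exists only for a gene whose low-nitrogen over normal-nitrogen ratio passed the authors' filter in leaf or root. Their changes under low nitrogen are therefore a description. Of 14 genes described as NPF in the authors' deposited tables, 4 belonged to NPF6 and 10 did not. The tenth, another NPF5.2-like gene (Ma11_g02430), is not on the list and is given further on beside the member of the same name.

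NPF proteins are membrane carriers that mostly use the proton gradient to move a solute into the cell. The family is known for low-affinity nitrate transport, for uptake of dipeptides and tripeptides, and for carrying hormones and defence compounds, and a subfamily number does not fix the substrate. Functions named below come from work in Arabidopsis and were not measured in banana.

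RNA sequencing was done on Cavendish plants grown in sand for 60 days on a low-nitrogen solution or on complete Hoagland solution. The 4 groups were low-nitrogen (low-N) leaf, normal-nitrogen (normal-N) leaf, low-N root and normal-N root, with 1 library each. The leaf samples came from an aboveground part that, per the series' design text, held pseudostem as well as leaf. Whether a library pooled several plants is not given in the sources used here, nor are the age of the plants or the nitrogen content of the low-N solution.

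The expected counts (estimated fragments per gene) summed to 4144048 in low-N leaf, 4164782 in normal-N leaf, 4408992 in low-N root and 4393407 in normal-N root. FPKM values (fragments per kilobase, scaled by the total of the library) are the authors', and a gene missing from a library's list was read as 0. With 1 library a group no difference has a replicate check and no test was run. The 95% intervals given with levels (exact Poisson) and with folds (exact Clopper-Pearson, from counts scaled by library totals) hold only the error of counting and say nothing of differences among plants. The tissue labels were checked on marker genes. Summed over 14 genes, chlorophyll a-b binding proteins reached 1358 FPKM in low-N leaf and 3905 FPKM in normal-N leaf. In root their sums were 17.81 FPKM under low N and 19.02 FPKM under normal N. Dirigent proteins (8 genes), chosen as root markers, summed to 31.72 FPKM in low-N leaf, 27.39 FPKM in normal-N leaf, 227 FPKM in low-N root and 580 FPKM in normal-N root. A casparian strip membrane protein gene, the other root marker, was listed in neither leaf library. In bulk tissue, fewer cells of a type and less RNA per cell cannot be told apart.

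Under low N, 6 of the 9 genes were higher in leaf and 1 was lower, while in root 2 were lower and none was higher. A call by size asked for a difference of at least 1 in log2 of (FPKM + 1) and for 2 FPKM or more in one of the libraries compared. By the same rule 11.7% of 21715 genes were higher in low-N leaf and 6.7% were lower. In root, 4.67% of 24476 genes were higher and 6.9% were lower. Nothing is read from the members' counts against these shares, because the members were picked for change. Median-ratio scaling, which equalises the middle of the libraries' gene ratios, left 3 of the 6 leaf genes past the limit (NPF4.6-like, NPF5.2-like and NPF8.1-like Ma06_g24230). With it, 46.3% of all called genes in leaf were higher, against 63.6% with FPKM as deposited. Of the 9, 8 reached 2 FPKM in a leaf library and 5 in a root library. The median log2 change over all 9 was 1.09 in leaf and 0.00 in root, beside 0.12 and -0.01 over all genes that reached 2 FPKM. No level filter was set on the 9 for these medians. NPF3.1 and NPF5.2-like, which had no counts in root, enter the root median at 0.00.

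**Figure D1:**
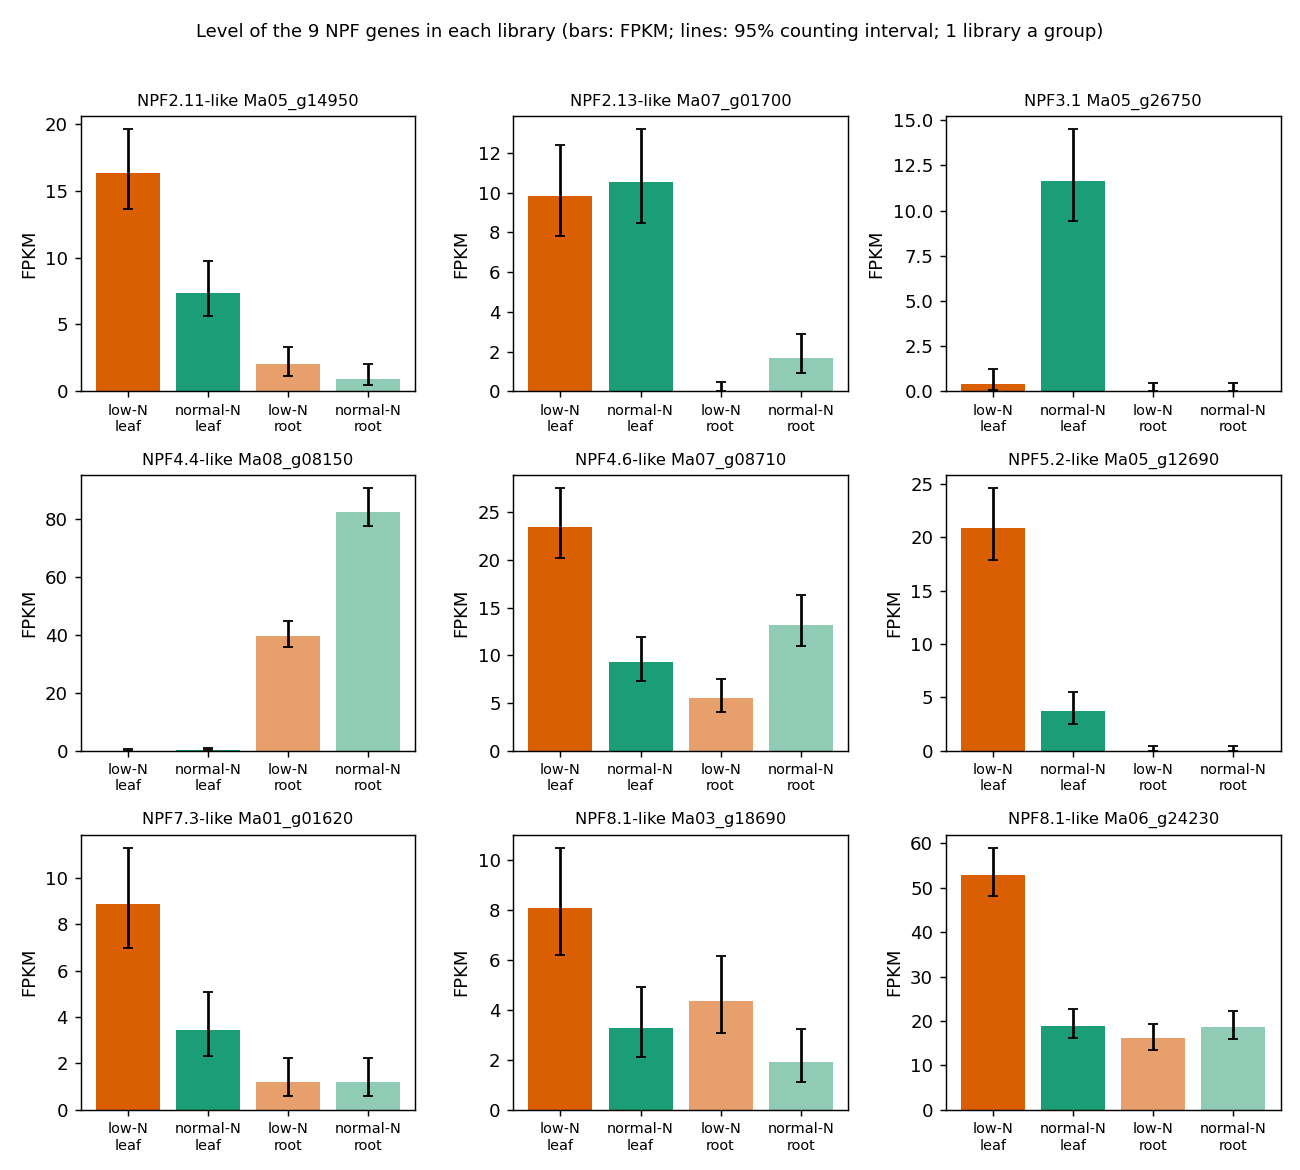
Level of each of the 9 NPF genes, in FPKM, in low-N leaf, normal-N leaf, low-N root and normal-N root, each panel with its own scale from 0. Bars are the value of the 1 library in each group and black lines the 95% counting interval. NPF4.4-like stands at 39.59 FPKM in low-N root and 82.39 FPKM in normal-N root and near 0 in leaf, whereas NPF3.1 and NPF5.2-like have no counts in root.

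Among the members whose Arabidopsis counterparts are tied to nitrate, NPF4.6-like (Ma07_g08710) stood higher in low-N leaf and lower in low-N root. The Arabidopsis protein, also called NRT1.2 or AIT1, takes up nitrate in roots and imports abscisic acid. NPF4.6-like was at 23.42 FPKM in low-N leaf and 9.26 FPKM in normal-N leaf, with 5.51 FPKM in low-N root and 13.22 FPKM in normal-N root. Low-N leaf was the highest library, and low-N root the lowest. In leaf the gene was 2.53-fold higher under low N (95% interval 1.90 to 3.40). In root it was 2.40-fold lower (1.67 to 3.52). The leaf fold was 6.04 times the root fold (3.77 to 9.82). NPF4.6-like was the only one of the 9 in both of the authors' deposited tables, with log2 ratios there of 1.34 in leaf and -1.26 in root. Normal-N leaf held 1.44-fold less of it than normal-N root (1.05 to 1.98), an interval that spans 1 after median-ratio scaling of the libraries (0.809 to 1.53). In low-N plants leaf was 4.23-fold above root (3.01 to 6.06).

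NPF4.4-like (Ma08_g08150) was the most abundant member in both root libraries and the lowest in low-N leaf. In Arabidopsis NPF4.4, or NRT1.13, acts in the stem in the response to nitrate supply. It was at 0 FPKM in low-N leaf and 0.29 FPKM in normal-N leaf, against 39.59 FPKM in low-N root and 82.39 FPKM in normal-N root. Its normal-N root level lay above that of 92.3% of all genes in the library. In root it was 2.09-fold lower under low N (1.82 to 2.40). That change, -1.04 in log2 of FPKM + 1, was the called root value nearest the size limit, and with median-ratio or upper-quartile scaling it fell short of the limit. Leaf was 98.1-fold below root in low-N plants, with 3 counts taken as the floor for the leaf library. From the counts as they are, the counting interval has a lower end of 79.3-fold and no upper end. In normal-N plants leaf was 309-fold below root (85.1 to 2553), a ratio that rests on 2 leaf counts. A nitrogen difference in leaf was not detectable at this depth, since 0 and 2 counts are both under the floor.

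NPF7.3-like (Ma01_g01620) differed between the nitrogen supplies in leaf. NPF7.3, or NRT1.5, loads nitrate and potassium into the xylem of Arabidopsis roots. In this gene the leaf libraries were the higher ones, with 8.86 FPKM in low-N leaf and 3.44 FPKM in normal-N leaf, while both root libraries stood at 1.20 FPKM on 10 counts each. In leaf it was 2.57-fold higher under low N (1.62 to 4.17), and the root ratio was 0.996 (0.372 to 2.67). The leaf fold was 2.55 times the root fold, with an interval of 0.849 to 7.73 that includes 1, so a tissue difference of the change was not detectable at this depth. Leaf was 7.34-fold above root in low-N plants (3.76 to 16.0) and 2.85-fold above root in normal-N plants (1.34 to 6.59).

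NPF2.13-like (Ma07_g01700) showed the reverse, with similar values in both leaf libraries and a difference in root. Arabidopsis NPF2.13, or NRT1.7, loads nitrate into the phloem of older leaves for use in younger ones. The banana gene was at 9.82 FPKM in low-N leaf and 10.52 FPKM in normal-N leaf, a ratio of 0.931 (0.673 to 1.29). In root it had 0 counts under low N and 14 counts (1.70 FPKM) under normal N. Taking 3 counts as the floor in place of 0, it was 4.68-fold lower in low-N root. The counting interval of the root change, from the counts as they are, has a lower end of 3.33-fold lower and no upper end. The level in normal-N root is under 2 FPKM, so the gene is not called by size. It is listed as lower in root by the authors' deposited table, with a log2 ratio of -10.73 that rests on an FPKM of 0.001 set in place of 0. The interval of the leaf fold over the root fold has a lower end of 2.95 and no upper end.

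The 3 members named after Arabidopsis peptide carriers were all higher in low-N leaf, as were NPF2.11-like, NPF4.6-like and NPF7.3-like. Arabidopsis NPF8.1 is the dipeptide carrier PTR1, and NPF5.2 is PTR3, a peptide carrier induced by wounding. The 3 members so named were also the only ones with a gene ontology entry for peptide transport. All 9 members carried the same KEGG entry for a peptide and histidine carrier, which does not tell them apart. The more abundant NPF8.1-like gene (Ma06_g24230) was at 52.95 FPKM in low-N leaf and 18.93 FPKM in normal-N leaf. Root values were 16.06 FPKM under low N and 18.65 FPKM under normal N. Only low-N leaf stood apart, since the other 3 libraries, placed in order, differed from their neighbours by no more than counting error. The gene was 2.79-fold higher in low-N leaf (2.29 to 3.41) and its root ratio was 0.859 (0.671 to 1.10). Its leaf fold was 3.24 times its root fold (2.36 to 4.47). Between tissues it stood 3.29-fold higher in leaf under low N (2.68 to 4.05), against a ratio of 1.01 under normal N (0.796 to 1.29). Median-ratio scaling moved that normal-N ratio to 1.31 (1.03 to 1.66).

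The other NPF8.1-like gene (Ma03_g18690) has the same coding length, 1743 bases, and a lower level. It was at 8.09 FPKM in low-N leaf and 3.27 FPKM in normal-N leaf. In root it was at 4.37 FPKM under low N and 1.93 FPKM under normal N. In both tissues the low-N library was the higher. The gene was 2.47-fold higher in low-N leaf (1.51 to 4.15) and 2.26-fold higher in low-N root (1.20 to 4.46). The leaf fold was 1.09 times the root fold (0.466 to 2.52). The root change was 0.87 in log2 of FPKM + 1, just under the size limit, and the gene is not in the authors' deposited table for root. It was the only member whose root interval lay above 1. Between tissues it stood 1.85-fold higher in leaf under low N (1.19 to 2.90). Under normal N leaf over root was 1.69 (0.850 to 3.46), and median-ratio scaling moved that to 2.19, with an interval of 1.10 to 4.48 that no longer spans 1.

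NPF5.2-like (Ma05_g12690) had the largest increase of the 9 in low-N leaf. It was at 20.86 FPKM in low-N leaf and 3.74 FPKM in normal-N leaf, and had 0 counts in both root libraries. The leaf fold was 5.56 (3.70 to 8.65). At 3 counts the floor for this gene was 0.383 FPKM in low-N root and 0.384 FPKM in normal-N root. With that floor in place of 0, leaf was 55.0-fold above root in low-N plants and 9.85-fold in normal-N plants. From the counts as they are, the counting intervals have lower ends of 44.2-fold under low N and 7.49-fold under normal N. Neither has an upper end. The NPF5.2-like gene off the list (Ma11_g02430) was at 60.6 FPKM in low-N leaf and 17.7 FPKM in normal-N leaf, with 6.45 FPKM in low-N root and 13.4 FPKM in normal-N root. That gene was 3.42-fold higher in low-N leaf (2.81 to 4.18) and 2.09-fold lower in low-N root (1.48 to 2.97), so it had counts in root where Ma05_g12690 had none.

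**Figure D2:**
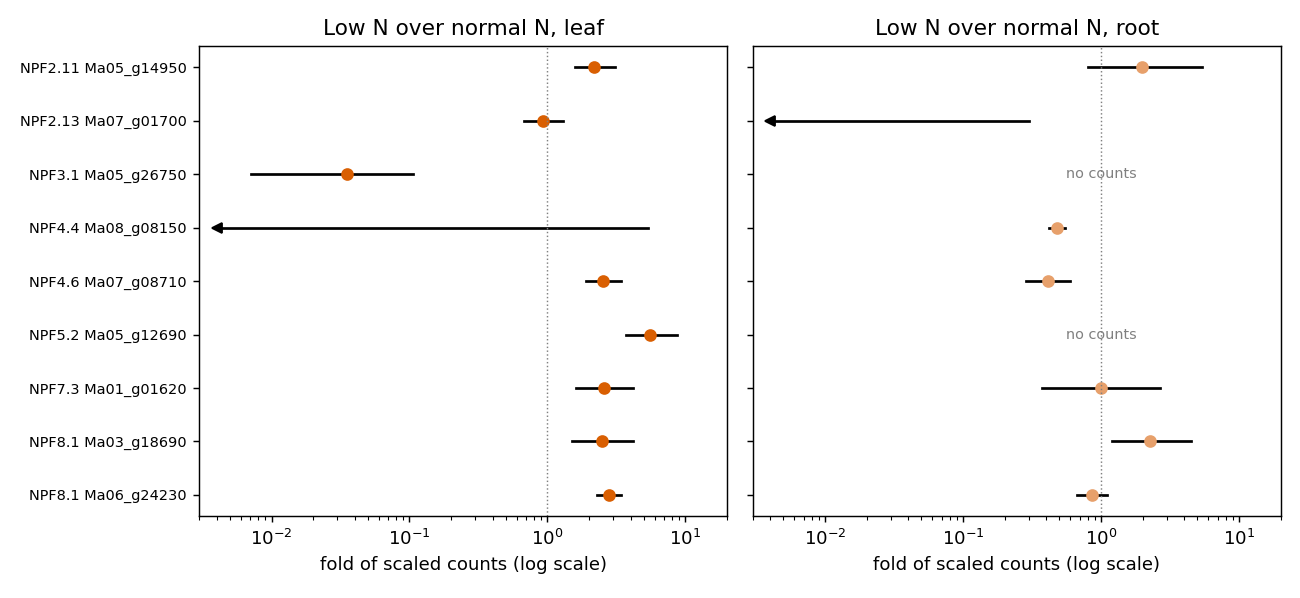
Fold of low N over normal N for each of the 9 genes in leaf and in root, on a log scale, from counts scaled by library totals. Points are the ratio, lines the 95% counting interval, arrows mark a low-N library with 0 counts, and the dotted line marks equal levels. In leaf, 6 intervals lie above 1 and that of NPF3.1 lies below it. In root, the intervals of NPF2.13-like, NPF4.4-like and NPF4.6-like lie below 1 and that of NPF8.1-like Ma03_g18690 lies above it. No share of all genes is given for such intervals and the members were picked for change, so nothing is read from these counts.

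The other 2 members are grouped by other solutes that their Arabidopsis namesakes carry, which does not exclude nitrate. NPF3.1 carries gibberellin there, and NPF2.11, or GTR2, moves glucosinolates, defence compounds of the cabbage order. NPF3.1 (Ma05_g26750) was the only member called lower in low-N leaf, at 0.41 FPKM on 3 counts, against 11.63 FPKM on 86 counts in normal-N leaf. It was 28.5-fold lower under low N (9.44 to 141), and its size on the log2 scale depends on the pseudocount because the low-N level is near that of 3 counts. Neither root library held a count of it. In normal-N plants leaf was 30.2-fold above root, with 3 counts taken as the floor for the root library. From the counts as they are, the counting interval has a lower end of 24.1-fold and no upper end. Under low N the leaf level, at 3 counts, could not be told from that of root.

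NPF2.11-like (Ma05_g14950) was at 16.30 FPKM in low-N leaf and 7.38 FPKM in normal-N leaf. Root values were 2.01 FPKM under low N and 0.95 FPKM under normal N. Both leaf libraries were above both root libraries. In leaf it was 2.19-fold higher under low N (1.58 to 3.07), and the root ratio of 1.99 had an interval of 0.805 to 5.38 that includes 1. The leaf fold was 1.10 times the root fold (0.383 to 2.92). Its leaf change, 1.05 in log2 of FPKM + 1, was the called leaf value nearest the size limit. Leaf was 7.98-fold above root in low-N plants (4.72 to 14.4) and 7.25-fold above root in normal-N plants (3.43 to 17.6). Its counts were not whole in any library, and a count that is not whole is one that the authors' counting estimated. Counts that were not whole to the 2 decimals deposited occurred in 5 of the 9 genes, and counts over 0.05 from a whole number in 3.

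The authors' deposited tables held 7 of the 9 genes for leaf, 6 higher and 1 lower, and 3 for root, all lower. For leaf, the authors' deposited table had 5.26% of the 28539 genes of the leaf libraries as higher and 2.54% as lower. For root, the authors' deposited table had 1.75% of 30473 genes as higher and 2.69% as lower. The limit of those tables was a log2 ratio of 1.00 in size, with FDR values of 0.000997 at most. Just inside it were NPF4.4-like in root and NPF2.11-like in leaf, with log2 ratios of -1.06 and 1.14 in the authors' deposited table. Not in the root table were NPF8.1-like Ma03_g18690 and NPF2.11-like, whose FPKM ratios were 1.18 and 1.08 in log2. The first had 34 counts in low-N root and 15 in normal-N root, and the second 16 in low-N root and 8 in normal-N root.

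**Figure D3:**
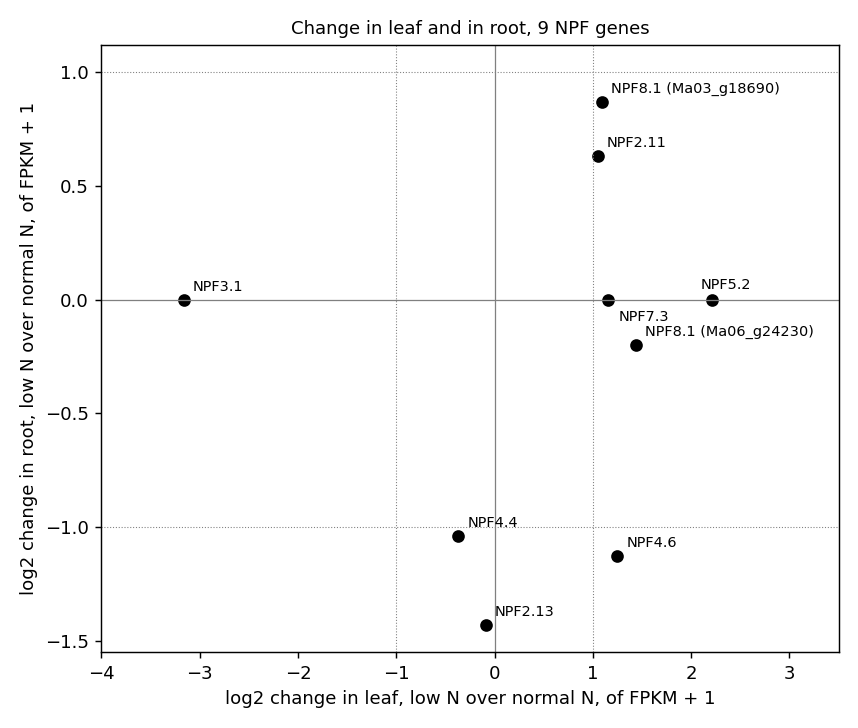
Change of each of the 9 genes under low N in leaf (horizontal) and in root (vertical), given as the log2 ratio of FPKM + 1 between the low-N and the normal-N library. Each point is a gene from 1 library a group, and dotted lines mark the size limit of 1. NPF4.6-like is the only point past the limit in opposite directions, at 1.25 in leaf and -1.13 in root.

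Between tissues, 6 of the 9 genes were higher in leaf than in root under low N, and 1 was lower, NPF4.4-like. Under normal N, 5 were higher in leaf and 1, again NPF4.4-like, was lower. In a leaf or root library, 8 of the 9 reached 2 FPKM under low N and 9 of 9 under normal N. Over all genes at 2 FPKM, 22.8% were higher and 37.1% lower in leaf under low N. Under normal N, 20.1% were higher and 42.2% lower. The median log2 difference of leaf over root was 1.91 under low N and 1.01 under normal N over the 9 members, beside -0.35 and -0.63 over all genes at 2 FPKM. These comparisons share their libraries with the low-N contrasts that chose the members. Of the 9, 6 were picked through the leaf table only, 2 through the root table only and 1 through both. The choice thus favoured genes with counts in leaf. Nothing is read from the members' counts or medians between tissues against those of all genes.

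The summed level of the 9 genes was 140.71 FPKM in low-N leaf and 68.46 FPKM in normal-N leaf. In root it was 68.74 FPKM under low N and 120.04 FPKM under normal N. Different genes made up these sums. NPF8.1-like Ma06_g24230 gave 37.6% of the sum in low-N leaf and 27.7% in normal-N leaf. NPF4.4-like gave 57.6% in low-N root and 68.6% in normal-N root. The next largest part in root was the same NPF8.1-like gene, at 23.4% in low-N root and 15.5% in normal-N root. NPF4.6-like gave 16.6% in low-N leaf and 13.5% in normal-N leaf.

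**Figure D4:**
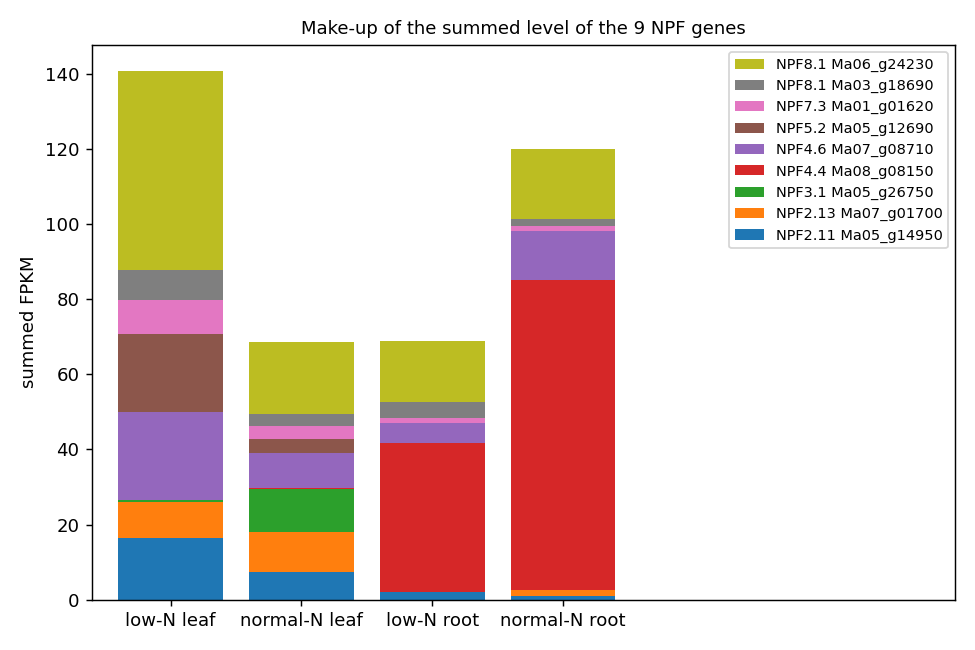
Summed FPKM of the 9 genes in low-N leaf, normal-N leaf, low-N root and normal-N root, split by gene, from 1 library a group with no error shown. The sum is 140.71 FPKM in low-N leaf and 120.04 FPKM in normal-N root, with NPF8.1-like Ma06_g24230 the largest part in leaf and NPF4.4-like the largest in root.

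The tissue markers were found by description, so they too are genes picked by the authors' filter, and that their levels differ follows from this. The authors' deposited tables hold as lower in leaf all 14 chlorophyll a-b binding genes, all 6 photosystem I genes and 2 of the 3 RuBisCO genes. For root the authors' deposited table holds all 8 dirigent genes, 7 of them lower, and the casparian strip gene as higher. In leaf, beside the 14 chlorophyll a-b binding genes given above, the 6 photosystem I reaction centre genes summed to 470 FPKM under low N and 1368 FPKM under normal N. The 3 RuBisCO small chain genes summed to 19675 FPKM in low-N leaf and 47058 FPKM in normal-N leaf. All 23 of these genes were above 0 in both leaf libraries, and some were above 0 in root too. Of the chlorophyll a-b binding genes, 8 were above 0 in low-N root and 12 in normal-N root. The photosystem I sum was 5.7 FPKM in low-N root and 1.84 FPKM in normal-N root. The RuBisCO sum was 139.5 FPKM in low-N root and 285.1 FPKM in normal-N root. In leaf, 1 RuBisCO gene made up nearly all of that list's sum, at 19671 FPKM under low N and 47042 FPKM under normal N. In root, the dirigent sum was lower under low N and the casparian strip gene was at 16.87 FPKM under low N and 3.75 FPKM under normal N. The part of these differences, and of the share of pseudostem, in the NPF values was not tested.

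Of the 5 other described NPF genes, 4 were higher by size in low-N leaf and none lower. In root none of them was higher and 1 was lower by size, an NPF6.3-like gene (Ma08_g10980). For root the authors' deposited table holds 2 of them as lower, this gene and the NPF5.2-like Ma11_g02430 given above, which fell short of the size limit on FPKM + 1. Most abundant among these 5 was an NPF6.3-like gene (Ma01_g13520), of the subfamily of the Arabidopsis nitrate sensor, at 83.9 FPKM in low-N leaf and 36.1 FPKM in normal-N leaf. Every gene on the lists of this paragraph and the next was itself picked by the authors' filter, so their counts are descriptions too. NRT2 and NAR2 genes of high-affinity nitrate uptake were higher in low-N leaf for 4 of 5 and lower in low-N root for 4 of 5. The most abundant, a NAR2-type partner protein (Ma06_g13610), was at 255 FPKM in low-N leaf and 54.5 FPKM in normal-N leaf. In root it was at 26.7 FPKM under low N and 343 FPKM under normal N. Nitrate and nitrite reductases, which reduce the nitrate taken up, showed no call by size in leaf and were lower in root for 4 of 4. For leaf the authors' deposited table holds 1 of the 4 as higher, a nitrate reductase (Ma03_g07170) at 31.9 FPKM in low-N leaf and 15.7 FPKM in normal-N leaf. The most abundant nitrate reductase (Ma09_g14900) was at 906 FPKM in low-N leaf and 1052 FPKM in normal-N leaf, with 17.9 FPKM in low-N root and 314 FPKM in normal-N root.

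Of 3 plasma membrane proton pumps, which energise carriers of the NPF kind, 1 was higher and 2 were lower in low-N root, and none was called by size in leaf. The pump with the highest mean level (Ma01_g00990) was at 222 FPKM in low-N leaf and 116 FPKM in normal-N leaf, with 86.5 FPKM in low-N root and 193 FPKM in normal-N root. Among 5 anion channel genes, 1 was higher and 3 were lower by size in low-N root, and none was called by size in leaf. For leaf the authors' deposited table holds 1 of them as lower, CLC-e (Ma08_g26180), at 6.52 FPKM in low-N leaf and 13.8 FPKM in normal-N leaf. By counts its ratio of low-N leaf over normal-N leaf was 0.473 (0.346 to 0.641), just short of the size limit on FPKM + 1. CLC-a-like (Ma03_g17470), whose Arabidopsis counterpart stores nitrate in the vacuole, was at 57.0 FPKM in low-N leaf and 64.7 FPKM in normal-N leaf. Root values were 2.51 FPKM under low N and 11.2 FPKM under normal N. Oligopeptide and YSL transporters, another family with peptide and metal chelate substrates, were higher for 6 of 8 and lower for 1 in low-N leaf. In low-N root 2 of these 8 were lower. YSL9 (Ma04_g31340), the most abundant, was lower in both tissues, at 51.4 FPKM in low-N leaf and 149 FPKM in normal-N leaf, with 16.6 FPKM in low-N root and 45.0 FPKM in normal-N root.

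The described genes whose pattern over the 4 libraries was nearest to each member were found by Euclidean distance of log2 (FPKM + 1), centred on the gene's mean, for members reaching 10 FPKM. The likeness rests on 4 libraries. Nearest to NPF8.1-like Ma06_g24230 were an L-type lectin-domain receptor kinase (Ma06_g29610, distance 0.08) and a putative lipase (Ma03_g31850, 0.09). Nearest to NPF4.6-like were WRKY transcription factor 41 (Ma03_g17210, distance 0.12) and a galactoside fucosyltransferase (Ma09_g14670, 0.19). WRKY41 was at 53.2 FPKM in low-N leaf and 24.4 FPKM in normal-N leaf. In root it was at 13.7 FPKM under low N and 31.6 FPKM under normal N, which is the same order of libraries as NPF4.6-like. Nearest to NPF3.1 were a protochlorophyllide reductase (Ma03_g14780, distance 0.18), an enzyme of chlorophyll synthesis, and a katanin p60 subunit (Ma11_g18770, 0.33). The reductase was at 0.41 FPKM in low-N leaf and 9.92 FPKM in normal-N leaf, and 0 in both root libraries.

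NPF7.3-like and NPF8.1-like Ma03_g18690 stayed under 10 FPKM in every library and were not compared in this way. The nearest genes to NPF2.11-like were the zinc finger protein ZAT9-like (Ma07_g04690, distance 0.26) and WRKY26 (Ma03_g09720, 0.28). For NPF2.13-like they were an O-glucosyltransferase (Ma04_g11940, distance 0.33) and the homeodomain protein BEL1-like 4 (Ma04_g14630, 0.34). A receptor-like kinase (Ma06_g11350, distance 0.31) and the exocyst subunit EXO70A1-like (Ma10_g05510, 0.32) stood nearest to NPF5.2-like. Nearest to NPF4.4-like were a germin-like protein (Ma05_g29070, distance 0.33) and a gene described as a RuBisCO small chain (Ma07_g15870, 0.36). That gene, which is on the leaf marker list but was higher in root, was at 0.95 FPKM in low-N leaf and 1.89 FPKM in normal-N leaf, with 81.5 FPKM in low-N root and 224 FPKM in normal-N root.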

How the data were processed

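Per the file headers, the authors deposited an expected count (an estimated count of fragments) and an FPKM value per gene and library. They also deposited filtered tables of both nitrogen contrasts, with log2 ratios, p-values and FDR values. BWA and Bowtie are named in the submitters' processing notes. The counting tool, the build, the annotation and the authors' test were not given in the sources used here. The 9 members' lengths are all multiples of 3 and were taken as coding lengths. None of the gene identifiers is in the RefSeq gene table. The protein accessions in the members' best-match descriptions are there for 8 of 9, but the files' build is not named, so no coordinates are given. A gene missing from a library's list was set to 0.

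Counts were rounded to whole numbers for folds. Changes were log2 of (FPKM + 1), which understates the change of low genes. The pseudocount was 1 FPKM, the size limit 1, the filter 2 FPKM in the higher library, the floor 3 counts and the interval level 95%. Ratios of leaf fold over root fold are conditional odds ratios of the 4 counts with exact intervals, scaled by library totals. With 1 library a group, no test was run. The size rule and the fold intervals were tried on simulated counts with counting error only. The changes set there were larger than the size limit, so calls near the limit and folds on few counts were not covered.

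All 9 members were named. From other lists (search terms on the descriptions) the most abundant gene by mean FPKM was named, or the 2 most abundant for the NPF family. For members reaching 10 FPKM, the 2 nearest genes among described genes at 5 FPKM or more were named. Ma08_g10980, CLC-e, the nitrate reductase Ma03_g07170 and values of WRKY41, the protochlorophyllide reductase and the root RuBisCO gene were added after their values were seen. The members, lists and rules were chosen with earlier results of these data known. As alternatives, the pseudocount was 0.1 or 5, the filter was absent or 10 FPKM, the size limit was 2, and the libraries were scaled by median ratios (genes with 10 counts or more in all 4 libraries) or by upper quartiles. Python 3.11.15, pandas 2.3.3, NumPy 2.4.6 and SciPy 1.17.1 were used.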

Additional observations from a re-analysis of the deposited data

Results flagged for a closer look

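NPF4.6-like (Ma07_g08710) was higher in low-N leaf and lower in low-N root, with log2 changes of 1.25 and -1.13 on the scale of FPKM + 1. It drew attention because the only library pair of each tissue moved past the size limit in the opposite direction. The difference between the tissues was not tested, since each group has 1 library. By counting error alone, the leaf fold was 6.04 times the root fold (3.77 to 9.82), and 5.07 times it (3.16 to 8.23) after median-ratio scaling.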

How the results depend on the processing

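No paired analysis was possible because each group has 1 library, and leaving out a replicate was impossible for the same reason. The count of 6 genes higher in low-N leaf was 4 with upper-quartile scaling or a filter of 10 FPKM. It was 3 with median-ratio scaling, 2 with a pseudocount of 5 and 1 with a size limit of 2. In root, the 0 higher genes became 2 with a pseudocount of 0.1 (NPF2.11-like and NPF8.1-like Ma03_g18690). The 2 lower genes became 0 with a pseudocount of 5 or a size limit of 2, and 1 with median-ratio or upper-quartile scaling, when NPF4.6-like remained. With no filter they became 3, with NPF2.13-like added. The 5 genes higher in leaf than in root under normal N became 3 with a pseudocount of 5, 2 with a filter of 10 FPKM and 4 with a size limit of 2. Under low N the 6 became 4 with a filter of 10 FPKM or a size limit of 2. Over all genes in leaf, the median log2 change was -0.09 with median-ratio scaling, against 0.12 as deposited, and the share of called genes that were higher was 46.3%, against 63.6%. In leaf over root under normal N it moved the median to -0.27, against -0.63, and the share higher to 41.7%, against 32.3%. Of 72 single log2 changes recomputed in leaf and root none was labelled reversed and 8 left the counting interval. Only a member called by size in that tissue could be labelled reversed. NPF3.1 and NPF5.2-like in root, with no counts, could not move. The tally is therefore no measure of how stable the changes are. Of the 8 that left it, 2 are NPF4.4-like in leaf under rescaling (-0.42 and -0.41, against -0.37), which rest on 0 and 2 counts. The fold interval of this gene in leaf still spanned 1, from 0 to 4.61 with median-ratio and to 4.88 with upper-quartile scaling. Rescaling of folds was added after seeing the data. It left all 7 leaf and 4 root intervals that excluded 1, counted among members picked for change, on the same side of 1. In leaf over root under normal N it changed 3 intervals with either scaling: that of NPF4.6-like came to span 1, and those of both NPF8.1-like genes came to lie above 1. Of 52 folds 1 moved outside its interval, that of NPF8.1-like Ma06_g24230 in leaf over root under normal N (1.31). Members at 10 to 30 counts in a library, such as NPF7.3-like in root, allow changes up to several fold within counting error.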
